A study of Homo sapiens with 60 samples.

Results

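This account follows 10 transcriptional targets of the tumour suppressor p53 in A549, a human lung adenocarcinoma cell line described as p53 wild-type, across 60 RNA-seq libraries of cells given plant extracts. The members were CDKN1A, MDM2, BBC3, FAS, TP53I3, SESN1, ZMAT3, PHLDA3, BTG2 and FDXR. They are canonical p53 targets, listed by name and found in the deposited table by Ensembl identifier, and the list was drawn up with earlier results of these data known. All 10 had a row among the 60675 genes of the table, and all 10 were among the 17256 genes that passed the filter on low counts. Cells were kept for 24 h in a vehicle of 0.1% DMSO (3 libraries) or in extracts made with hot water, at doses of 500, 100 or 20 µg/mL. Extracts came from the single herbs Menthae Herba and Saposhnikoviae Radix and from mixed-herb decoctions. The decoctions with 3 libraries per dose, as for both herbs, were Soyo-san, Okbyeongpung-san, Saengmaek-san and Guibi-tang, and Soshiho-tang had 1 library per dose. All groups share the same cell line, and its genotype cannot be read from counts. The text of the series gives 2% DMSO for the vehicle and says that toxic extracts were given at lower concentrations, whereas the sample labels used here give the same 3 doses for every extract. Whether the 3 libraries behind a mean were grown as independent cultures is not stated, and every p-value therefore reflects library-to-library spread alone, which may be technical.

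The protein p53 is a transcription factor that is held at a low level by MDM2, a ubiquitin ligase whose own gene p53 switches on. DNA damage or other stress breaks this loop, p53 accumulates, and it binds paired 10-base motifs near its target genes. The targets stop the cell cycle (CDKN1A, BTG2), trigger cell death (BBC3, FAS) or act in metabolism and survival signalling (TP53I3, SESN1, FDXR, PHLDA3, ZMAT3). In A549 the loop is further set by loss of CDKN2A, the locus of the MDM2 inhibitor p14ARF.

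Promoter sequences show where such motifs lie close to a start of transcription. RefSeq promoter windows (build GRCh38.p14, 250 bases before to 50 after a start) were held for 9 of the 10 members, in 18 windows, and PHLDA3 was not among them. A p53 response element was searched as a pair of the 10-base p53 consensus motifs, 0 or 1 base apart, with both cores reading CNNG and up to 3 mismatches over the pair. The motif reads the same on both strands, so a scan of 1 strand covers both. A match was found in 2.38% of the 35116 windows of all genes and in windows of 4 members (MDM2, FAS, SESN1 and FDXR). The stretches below are shown because MDM2 and FAS are among the members that changed and SESN1 is one that did not pass the test in any comparison. Capitals mark the matched pair, and each stretch is 100 bases, 5′ to 3′.
MDM2, chr12:68808883-68808982, plus strand: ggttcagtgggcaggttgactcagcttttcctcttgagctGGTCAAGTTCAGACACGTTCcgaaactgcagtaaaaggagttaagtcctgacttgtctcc
FAS, chr10:88991269-88991368, plus strand: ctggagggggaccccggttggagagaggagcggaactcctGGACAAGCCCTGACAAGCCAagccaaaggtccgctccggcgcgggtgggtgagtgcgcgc
SESN1, chr6:109008989-109009088, minus strand: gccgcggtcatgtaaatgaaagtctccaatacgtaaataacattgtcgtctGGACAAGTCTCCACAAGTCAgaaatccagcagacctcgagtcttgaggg
In MDM2 the pair had 2 mismatches and began 94 bases before the nearest listed start, which is the known internal promoter that p53 uses. FAS had 2 mismatches, 122 bases before a start inside the gene, and SESN1 had 3 mismatches, 49 bases before a start. No match in the windows of CDKN1A, BBC3, TP53I3, ZMAT3 and BTG2 says only that these letters are not in these windows.

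Library totals ran from 18330631 to 35308811 counts. In the order of the library names a step in overall expression lay after the 31st library, found from the data and not stated in the labels. It took up 82.15% of the first principal component, which held 14.27% of the variance. Mitochondrially encoded genes made up 10.7 to 13.9% of counts before it and 12.9 to 22.2% after it. The vehicle and both herbs lay wholly before the step, and Soyo-san, Okbyeongpung-san and Soshiho-tang wholly after it. All 6 groups of Saengmaek-san and Guibi-tang had libraries on both sides. The A549 and epithelial markers KRT8, KRT18, AKR1B10 and ALDH1A1 were high throughout (lowest values 2660, 2230, 1860 and 4580 CPM, counts scaled to a common library total in the usual way, a scale that ignores gene length). CDKN2A reached at most 2 counts in any library and CDKN2B had 0. EPCAM was low (3.76 to 6.23 CPM). Of the immune markers PTPRC and CD3E reached at most 1 and 0 counts, whereas CD68 was read at 6.62 to 19 CPM, and of the fibroblast markers DCN reached at most 2 counts while COL1A1 was read at 25.9 to 40.7 CPM.

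All 10 members were expressed in vehicle-treated cells. Per kilobase of annotated exon (GENCODE 29) the vehicle levels were highest for TP53I3, at 37.5 ± 0.658 CPM per kb (SD, n = 3), and CDKN1A, at 26.3 ± 0.735. MDM2 and PHLDA3 followed at 11.6 ± 0.398 and 11.6 ± 0.102 and did not differ beyond their spread. FDXR stood at 9.82 ± 0.175 and BTG2 at 4.14 ± 0.197. The lowest were ZMAT3 (2.29 ± 0.130), FAS (2.04 ± 0.0342), SESN1 (1.75 ± 0.111) and BBC3 (1.64 ± 0.0808), of which SESN1 and BBC3 lay within each other's spread. In bulk RNA fewer expressing cells and less RNA per cell cannot be told apart.

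**Figure D1:**
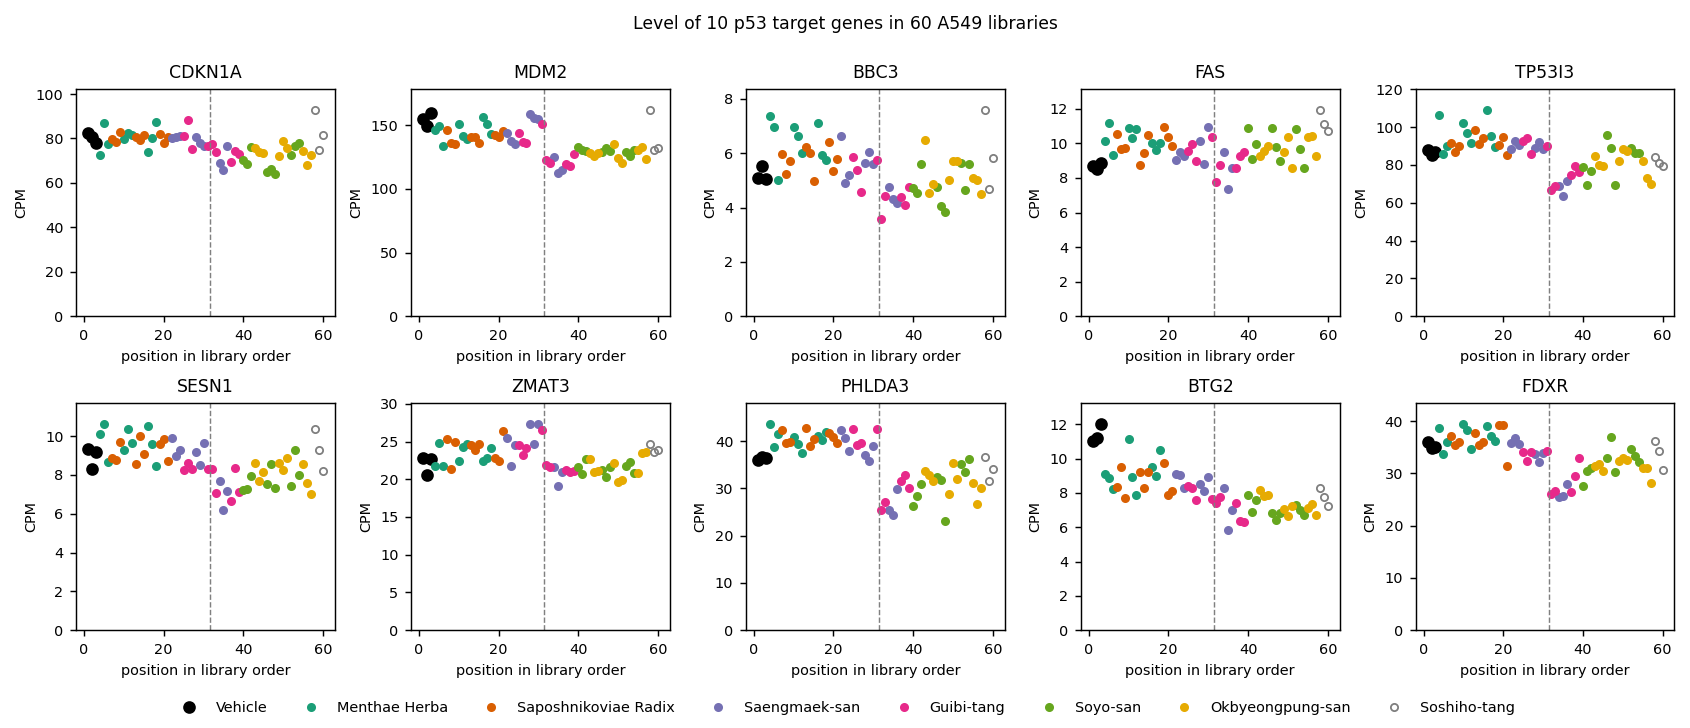
CPM of each of the 10 members (y axis, from 0) against the position of the library in the order of library names (x axis); each point is 1 library, coloured by extract, and the dashed line marks the step after library 31. BTG2 stands at 11.02 to 12.04 CPM in vehicle and 56 of 57 treated libraries lie below that range, and 27 of the 29 libraries after the line are below vehicle for PHLDA3. The shares of all genes with such counts were not counted.

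At the highest dose, 500 µg/mL, most members did not pass the test. Of 60 tests (10 members in 6 extracts) against the same 3 vehicle libraries, 2 were called higher and 8 lower by edgeR's quasi-likelihood test at a Benjamini-Hochberg adjusted p under 0.05. BTG2 fell in 5 extracts, MDM2 in 2 and CDKN1A in 1, while BBC3 rose in Menthae Herba and FAS in Soyo-san. TP53I3, SESN1, ZMAT3, PHLDA3 and FDXR passed the test in none of the 6. The balance of directions moved with the step in the library order: with the step as a term 4 were called higher and 7 lower. In fits of libraries before the step, which covered 4 extracts and 40 tests, 5 were higher and 5 lower. The members called were 1 of 10 in Menthae Herba (6.77% of all genes tested were called there), 1 in Saposhnikoviae Radix (1.56%) and 1 in Saengmaek-san (0.614%). They were 1 in Guibi-tang (4.42%), 4 in Soyo-san (6.03%) and 2 in Okbyeongpung-san (3.39%). The median log2 fold change of the 10 members ran from -0.15 in Soyo-san to 0.11 in Menthae Herba, beside medians of all genes between -0.001 and 0.007.

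BTG2, an antiproliferative protein that slows cell-cycle entry and promotes mRNA deadenylation, showed the most frequent change. Its level was 11.02, 11.22 and 12.04 CPM in the vehicle libraries. At 500 µg/mL it was 8.35, 9.22 and 9.75 CPM in Saposhnikoviae Radix and 9.08, 8.50 and 8.30 in Saengmaek-san. Guibi-tang gave 8.39, 7.66 and 7.40 CPM, Soyo-san 7.90, 6.85 and 7.29, and Okbyeongpung-san 8.14, 7.06 and 7.14. None of these 15 libraries overlapped the vehicle range. Of all genes tested, 33.8% did not overlap vehicle in Menthae Herba at 500 µg/mL, 32% in Saposhnikoviae Radix, 12.7% in Saengmaek-san, 19.2% in Guibi-tang, 30.6% in Soyo-san and 32.7% in Okbyeongpung-san, and every statement below on groups that do not overlap vehicle at this dose stands beside these shares. In Menthae Herba the libraries read 9.11, 11.1 and 9.50 CPM, and the second of them lay inside the vehicle range. Over all doses 56 of 57 treated libraries were below every vehicle library, and the count was also 56 with mitochondrially encoded genes left out of the total.

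In Okbyeongpung-san BTG2 fell with a log2 fold change of -0.60 ± 0.103 (SE; edgeR, adjusted p = 0.000197). It was -0.60 ± 0.103 in Soyo-san (adjusted p = 0.000115) and -0.57 ± 0.103 in Guibi-tang (adjusted p = 0.000232). The falls in Saengmaek-san (-0.40 ± 0.100, adjusted p = 0.0444) and Saposhnikoviae Radix (-0.38 ± 0.100, adjusted p = 0.0373) both lost the call when any 1 library of the comparison was left out (adjusted p 0.0793 to 0.220 and 0.0548 to 0.232). The value of -0.24 in Menthae Herba did not pass (adjusted p = 0.145). The same 3 vehicle libraries serve all of these comparisons, and all lie before the step. With the step as a term the values in Soyo-san and Okbyeongpung-san were -0.50 and -0.50 (edgeR, adjusted p = 0.00365 and 0.00329). No value within 1 side of the step could be had for these extracts. The step term is set by the Saengmaek-san and Guibi-tang groups, which lie on both sides. Whether it holds for Soyo-san and Okbyeongpung-san was not tested. With libraries before the step only, BTG2 was at -0.38 in Saposhnikoviae Radix, -0.42 in Saengmaek-san and -0.57 in Guibi-tang (edgeR, adjusted p = 0.00902, 0.0241 and 0.000772). Saengmaek-san and Guibi-tang had only 2 libraries each there at this dose.

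Doses of 100 and 20 µg/mL gave the same picture for BTG2, at a similar size. It was called lower in 6 of 6 extracts at 100 µg/mL (log2 fold changes -0.72 to -0.39) and in 5 of 6 at 20 µg/mL (-0.65 to -0.48), where Menthae Herba, at -0.40, did not pass. At 100 µg/mL all 9 calls among the members were falls, 6 of BTG2 and 3 of MDM2. The percentages of all genes called there were 0.974% in Menthae Herba, 0.666% in Saposhnikoviae Radix, 0.666% in Saengmaek-san, 1.41% in Guibi-tang, 1.77% in Soyo-san and 1.37% in Okbyeongpung-san. At 20 µg/mL the 8 calls were 5 of BTG2 and 3 of MDM2, also all falls. There the percentages were 0.382% in Menthae Herba, 0.991% in Saposhnikoviae Radix, 0.452% in Saengmaek-san, 1.35% in Guibi-tang, 1.99% in Soyo-san and 1.09% in Okbyeongpung-san. Between 500 and 20 µg/mL, a comparison that does not use the vehicle, BTG2 moved by no more than 0.15 (log2) in any extract and was not called. Without vehicle replicate 3, which holds the highest BTG2 and MDM2 of the vehicle, the calls summed over the extracts numbered 3 at 100 and 3 at 20 µg/mL.

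MDM2, the ligase that marks p53 for degradation, read 154.9, 149.1 and 159.7 CPM in vehicle. In Soyo-san at 500 µg/mL it read 133.0, 129.2 and 128.9 CPM, and in Okbyeongpung-san 128.0, 135.5 and 130.3. All 6 libraries lay below the vehicle range. The log2 fold changes were -0.21 ± 0.0576 in Soyo-san (edgeR, adjusted p = 0.0213) and -0.22 ± 0.0576 in Okbyeongpung-san (adjusted p = 0.0203). With the step as a term they were -0.07 and -0.08 (edgeR, adjusted p = 0.443 and 0.343), so both calls ended. Each call also ended in 4 of 6 refits that left out 1 library, vehicle replicates 1 and 3 among them (edgeR, adjusted p up to 0.122 and 0.118). Over all 18 comparisons with vehicle MDM2 was below 0 in 18 and called in 8, and in 5 with the step as a term. In Guibi-tang its value of -0.18 was not called (adjusted p = 0.0601), and it was called with the step as a term (-0.14, adjusted p = 0.0489). In Saposhnikoviae Radix, which lies on the vehicle's side of the step, MDM2 read 146.3, 140.5 and 142.4 CPM. That value of -0.16 was not called in the full fit (adjusted p = 0.169) and was called in the fit of libraries before the step (-0.15, adjusted p = 0.0254).

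CDKN1A encodes p21, the inhibitor of cyclin-dependent kinases through which p53 halts the cycle. Its vehicle levels were 82.4, 80.7 and 78.0 CPM. In Soyo-san at 500 µg/mL it read 70.2, 64.9 and 72.5 CPM, below all vehicle libraries. The log2 fold change of -0.18 ± 0.0567 was at the edge of the threshold (edgeR, adjusted p = 0.0488). With the step as a term it was -0.15 (adjusted p = 0.136), and the call ended without any 1 library except Soyo-san replicate 1 (adjusted p up to 0.291). In the other 5 extracts at 500 µg/mL the values were below 0 and not called, -0.13 to -0.04. CDKN1A in Menthae Herba was called lower among libraries before the step (-0.13, adjusted p = 0.0385) and with only the groups compared (-0.13, adjusted p = 0.0313), and in Okbyeongpung-san with only the groups compared (-0.10, adjusted p = 0.0376). CDKN1A thus passed the test upward in none of the 18 comparisons with vehicle, whose highest value was 0.04.

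BBC3 encodes PUMA, a BH3-only protein that starts mitochondrial apoptosis. It was read at 5.10, 5.52 and 5.06 CPM in vehicle and at 7.39, 6.96 and 7.10 CPM in Menthae Herba at 500 µg/mL, with no overlap. The rise was 0.41 ± 0.114 on the log2 scale, or 1.33-fold (edgeR, adjusted p = 0.0201). The call ended without vehicle replicate 1 or 3 or Menthae Herba replicate 1 or 2 (edgeR, adjusted p up to 0.089), with log2 fold changes of 0.39 to 0.45 over all 6 such refits. The intermediate dose of 100 µg/mL gave 6.95, 6.65 and 5.95 CPM and 20 µg/mL gave 5.02, 6.00 and 5.74. The mean rose with dose in Menthae Herba, but the change from 20 to 500 µg/mL was not called (0.34 ± 0.116, adjusted p = 0.133). Among libraries before the step only, an alternative chosen after seeing the data, it was called (0.34, adjusted p = 0.0283). At these levels BBC3 is among the members with the fewest counts.

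FAS is the cell-surface death receptor, and its promoter stretch with the p53 motif is printed above. It stood at 8.71, 8.54 and 8.83 CPM in vehicle and at 10.9, 10.9 and 10.8 CPM in Soyo-san at 500 µg/mL. The groups did not overlap, and the rise of 0.36 ± 0.0761 (log2; 1.28-fold) was called (edgeR, adjusted p = 0.00204). It kept its call with the step as a term (0.39, adjusted p = 0.00307) and when each library was left out (adjusted p 0.00719 to 0.0196). All 18 log2 fold changes of FAS against vehicle were above 0, from 0.03 to 0.36, and only this 1 was called. From 20 to 500 µg/mL of Soyo-san it moved by 0.24 ± 0.0780, which did not pass (adjusted p = 0.251). FAS overlaps ACTA2 on the opposite strand, and the strand setting of the counting is not given in the sources used here. ACTA2, smooth muscle actin, changed in the same comparison by 0.35 ± 0.109 (edgeR, adjusted p = 0.0414). Without a known strand setting, reads of FAS and ACTA2 cannot be told apart in the stretch they share.

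TP53I3 (PIG3), a quinone oxidoreductase linked to oxidative stress, read 88.03, 85.02 and 86.91 CPM in vehicle and 106.6, 102.3 and 109.2 CPM in Menthae Herba at 500 µg/mL. The groups did not overlap, but the log2 fold change of 0.25 ± 0.0823 narrowly missed the threshold (edgeR, adjusted p = 0.0577). It was called with the step as a term (0.25, adjusted p = 0.00329), with DESeq2 (0.25, adjusted p = 0.0377) and among libraries before the step (0.25, adjusted p = 4.32e-05). Within Menthae Herba the change from 20 to 500 µg/mL was 0.21 ± 0.0828, not called in the full fit (adjusted p = 0.221). With the step as a term it was 0.21 (edgeR, adjusted p = 0.0286). Its level at 20 µg/mL of this herb was 89.9, 91.4 and 89.6 CPM, below all 3 libraries at 500 µg/mL. Of all genes tested, 21.8% likewise did not overlap between these doses of Menthae Herba. In Soyo-san, TP53I3 was at 0.28 against vehicle with the step as a term (edgeR, adjusted p = 0.0064) and was not called without it.

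SESN1, a sestrin that restrains mTORC1, ZMAT3, an RNA-binding zinc-finger protein, PHLDA3, an inhibitor of AKT, and FDXR, the mitochondrial ferredoxin reductase, passed no test against vehicle or between doses. At 500 µg/mL against vehicle SESN1 ran from -0.24 in Soyo-san to 0.12 in Menthae Herba (log2 fold change), and ZMAT3 from -0.03 in Menthae Herba to 0.18 in Saengmaek-san. FDXR ran from -0.18 in Guibi-tang to 0.10 in Menthae Herba, and PHLDA3 from -0.21 in Okbyeongpung-san to 0.17 in Saposhnikoviae Radix. The direction of PHLDA3 turned with the step: over the 18 comparisons with vehicle it was below 0 in 11, and in 0 with the step as a term (0.03 to 0.19). In Menthae Herba and Saposhnikoviae Radix all 6 PHLDA3 libraries at 500 µg/mL, 40.9 to 43.7 CPM, lay above the vehicle libraries at 36.01 to 36.65 CPM. Among libraries before the step alone PHLDA3 was called higher at 0.17 in Menthae Herba, 0.17 in Saposhnikoviae Radix and 0.17 in Guibi-tang (edgeR, adjusted p = 0.0164, 0.0201 and 0.0335). Guibi-tang had only 2 libraries there at this dose. With only the groups compared, PHLDA3 and FDXR were called lower in Okbyeongpung-san, at -0.21 and -0.15 (edgeR, adjusted p = 0.00516 and 0.0115), a comparison that crosses the step.

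**Figure D2:**
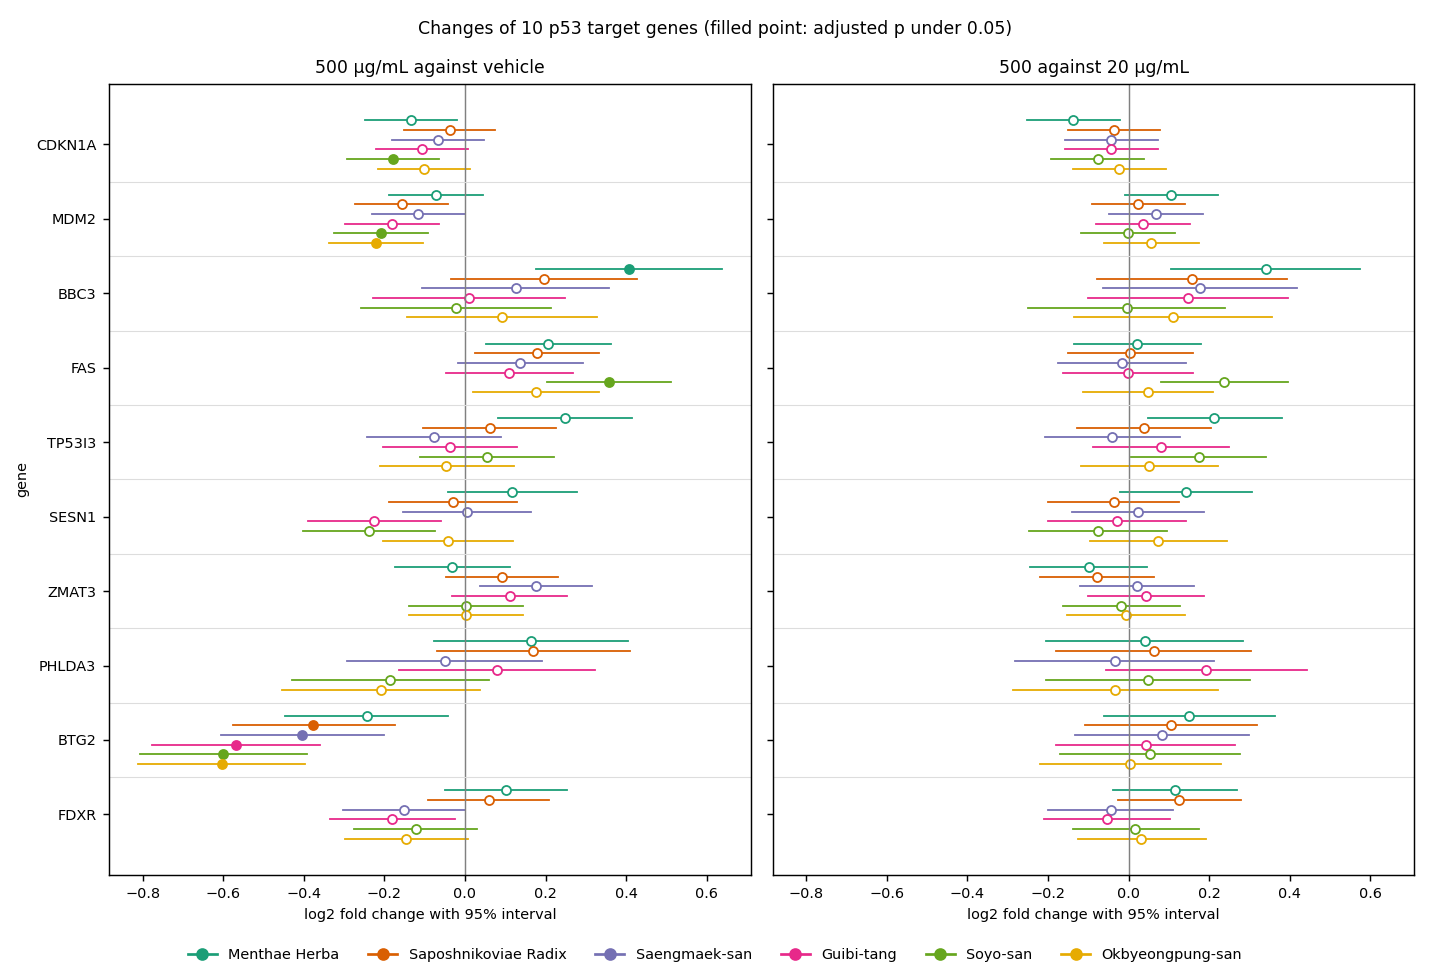
Log2 fold change with 95% interval (x axis) of each member (y axis) in 6 extracts, at 500 µg/mL against vehicle (left) and against 20 µg/mL (right); filled points passed an adjusted p under 0.05. The left panel holds 10 filled points, 5 of them BTG2, and the right panel holds 0.

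The comparison of 500 with 20 µg/mL within an extract does not use the vehicle libraries. None of the 60 tests on the members was called with edgeR, and none with DESeq2. At an unadjusted p under 0.05 there were 5: CDKN1A (-0.14), BBC3 (0.34) and TP53I3 (0.21) in Menthae Herba, and FAS (0.24) and TP53I3 (0.17) in Soyo-san. At the same unadjusted threshold stood 11.4% of all genes in Menthae Herba, 7.43% in Soyo-san and 6.57% over the 6 comparisons, so 5 of 60 is near the background. The percentages of all genes called were 2.43% in Menthae Herba, 0.0811% in Saposhnikoviae Radix, 0% in Saengmaek-san, 0.997% in Guibi-tang, 0.614% in Soyo-san and 0.0985% in Okbyeongpung-san. The 95% intervals of the 60 changes lay between -0.288 (PHLDA3 in Okbyeongpung-san) and 0.575 (BBC3 in Menthae Herba), that is, 0.819-fold to 1.49-fold. With 3 libraries a group this bounds the size of any dose effect but does not show that there was none.

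The 3 pairs of extracts that share the first number of the library name were compared by the difference of their 500-against-20 changes. For Menthae Herba minus Saposhnikoviae Radix (0.197% of all genes called), Saengmaek-san minus Guibi-tang (0.296%) and Soyo-san minus Okbyeongpung-san (0.029%), 0 of 30 member tests were called by edgeR, 0 by DESeq2 and 0 at an unadjusted p under 0.05. Values of the members ran from -0.23 to 0.19 (log2) over the 3 differences.

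**Figure D3:**
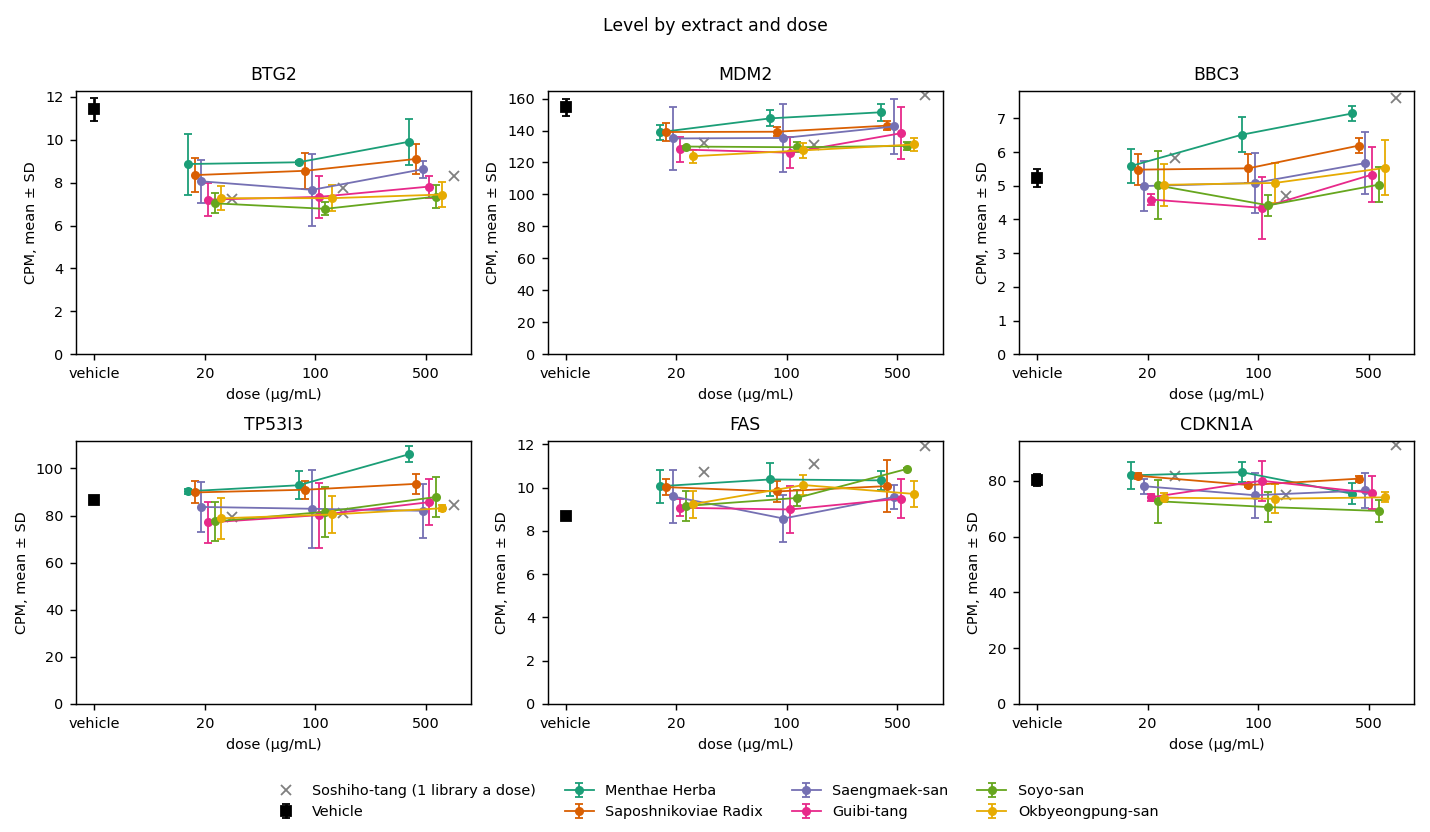
Level in CPM (y axis, from 0; mean ± SD of 3 libraries) of 6 members by dose (x axis) for 6 extracts, with vehicle as a black square and single Soshiho-tang libraries as crosses. BTG2 lies below vehicle at every dose, and the 3 BBC3 libraries of Menthae Herba at 500 µg/mL (6.96 to 7.39 CPM) lie above vehicle.

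MDM4, the MDM2 relative that masks the activation domain of p53, was not called in any comparison. Against vehicle at 500 µg/mL it ran from -0.27 in Okbyeongpung-san to -0.01 in Saengmaek-san. CDKN2A had too few counts to be tested.

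Of a wider list, 44 further p53 targets are reported here, of which 43 were tested, and of a list of p53 regulators 17, of which 16 were tested. At 500 µg/mL against vehicle, members of the wider list were called in both directions. There were 3 higher and 2 lower in Menthae Herba, 1 and 2 in Saposhnikoviae Radix, 0 and 1 in Saengmaek-san, 2 and 3 in Guibi-tang, 2 and 3 in Soyo-san and 2 and 3 in Okbyeongpung-san. Their median log2 fold change stayed between -0.05 and 0.03. Beside the counts of both lists, the share of all genes called ran from 0.614% in Saengmaek-san to 6.77% in Menthae Herba, as given by extract above. Of the regulators, 2 were higher and 1 lower in Menthae Herba, 1 was higher in each of Guibi-tang, Soyo-san and Okbyeongpung-san, and 0 were called in Saposhnikoviae Radix and Saengmaek-san. From 20 to 500 µg/mL the wider list had 1 higher and 1 lower in Menthae Herba, 1 and 1 in Guibi-tang, 1 and 0 in Soyo-san and 0 in the other 3 extracts. The share of all genes called between these doses ran from 0% in Saengmaek-san to 2.43% in Menthae Herba.

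GDF15, a secreted stress cytokine, rose in Menthae Herba (0.38 ± 0.0774, edgeR adjusted p = 0.000856) and in Guibi-tang (0.35 ± 0.0778, adjusted p = 0.00372). In Guibi-tang it also rose from 20 to 500 µg/mL (0.43 ± 0.0801, adjusted p = 0.00082). Smaller rises against vehicle were those of HIPK2, a kinase that phosphorylates p53, in Menthae Herba (0.25), and of CYFIP2 in Menthae Herba (0.24) and Soyo-san (0.22). XPC, a DNA damage recognition factor, rose in Saposhnikoviae Radix (0.15) and Okbyeongpung-san (0.14), PERP in Guibi-tang (0.21), IKBIP in Soyo-san (0.19) and Okbyeongpung-san (0.16), and TP53BP1, a p53-binding repair factor, in Okbyeongpung-san (0.15), Guibi-tang (0.14), Menthae Herba (0.13) and Soyo-san (0.13). DRAM1, a regulator of autophagy, rose from 20 to 500 µg/mL in Soyo-san (0.29 ± 0.0657, edgeR adjusted p = 0.016).

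The falls in the wider list recurred in the same few genes. SESN2, a sestrin gene that is a target of both p53 and ATF4, fell in 5 extracts and was not called in Menthae Herba (-0.24, adjusted p = 0.129). Its falls ran from -0.60 ± 0.101 in Guibi-tang (edgeR, adjusted p = 7.31e-05) to -0.40 ± 0.0970 in Saposhnikoviae Radix (adjusted p = 0.019). GADD45A, a damage-induced cell-cycle regulator, fell by 0.32, 0.34 and 0.31 on the log2 scale in Menthae Herba, Saposhnikoviae Radix and Guibi-tang. PPM1D, the phosphatase that switches p53 signalling off, fell by 0.30, 0.32 and 0.30 in Guibi-tang, Soyo-san and Okbyeongpung-san. AEN, an apoptosis-enhancing nuclease, fell by 0.40 in Soyo-san and 0.36 in Okbyeongpung-san, and KAT5, an acetyltransferase of p53, by 0.19 in Menthae Herba. The decoy receptor TNFRSF10D fell in Menthae Herba against vehicle (-0.31) and against 20 µg/mL (-0.27), and in Guibi-tang against 20 µg/mL (-0.21). As for the members, values of Soyo-san and Okbyeongpung-san against vehicle also cross the step. In these extracts the extract and the step cannot be told apart, and a step term rests on the groups of Saengmaek-san and Guibi-tang.

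**Figure D4:**
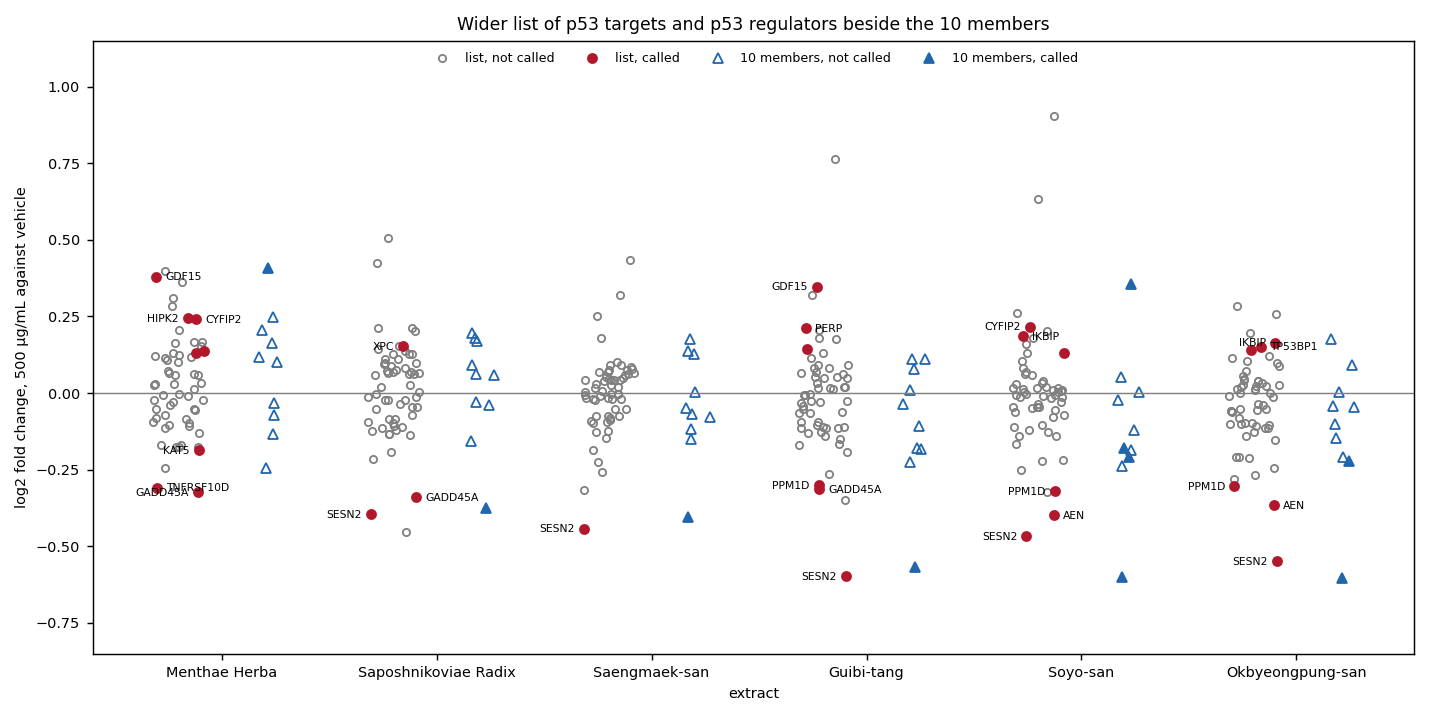
Log2 fold change at 500 µg/mL against vehicle (y axis) for 59 tested genes of the wider p53 target and regulator lists (circles) and the 10 members (triangles) in 6 extracts (x axis); filled symbols passed an adjusted p under 0.05. Called genes lie on both sides of 0 in every extract except Saengmaek-san, and SESN2 and BTG2 are the lowest filled symbols in the 4 decoctions.

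Genes that p21 represses through the DREAM complex were counted on the same libraries, and what moved them was not tested. Of 24 cell-cycle genes tested, 0 were higher and 3 lower in Menthae Herba at 500 µg/mL against vehicle, 2 lower in Saposhnikoviae Radix, 0 in Saengmaek-san, 4 in Guibi-tang, 3 in Soyo-san and 2 in Okbyeongpung-san. Their median log2 fold changes ran from -0.12 to -0.04, beside medians of all genes between -0.001 and 0.007. The shares of all genes called at this dose were 6.77% in Menthae Herba, 1.56% in Saposhnikoviae Radix and 0.614% in Saengmaek-san. They were 4.42% in Guibi-tang, 6.03% in Soyo-san and 3.39% in Okbyeongpung-san, and they also stand beside the lists that follow. From 20 to 500 µg/mL 1 gene was called, higher, in Menthae Herba (2.43% of all genes were called there), and 0 in the other 5 extracts. Of 13 immediate early genes tested, a class to which BTG2 is related by its fast induction, between 0 and 4 were higher and between 0 and 3 lower at 500 µg/mL against vehicle. Of 10 NF-kB targets tested, 7, 8 and 8 rose in Guibi-tang, Soyo-san and Okbyeongpung-san, with 1 in Menthae Herba, 0 in Saposhnikoviae Radix and 1 in Saengmaek-san. FAS is also known as an NF-kB target, and its values in those 3 decoctions were 0.11, 0.36 and 0.18. Its mean level at 500 µg/mL was 9.49, 10.87 and 9.71 CPM in them. It was 10.33 CPM in Menthae Herba, 10.07 in Saposhnikoviae Radix and 9.56 in Saengmaek-san, where few or no NF-kB targets were called. A link between FAS and NF-kB was not tested.

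The coefficients of the members for the step in the library order had 1 sign, though not all were clear of 0. In a fit with the step as a term, all 10 had a coefficient below 0 after the step, with a median of -0.15 (log2), beside a median of -0.004 over all genes, of which 50.9% lay below 0. PHLDA3 had the largest coefficient, -0.36 ± 0.0540 (SE), and lay at the 5.49th percentile of all genes. TP53I3 followed at -0.23 ± 0.0384, BBC3 at -0.20 ± 0.0721, FDXR at -0.19 ± 0.0389, SESN1 at -0.16 ± 0.0475, MDM2 at -0.14 ± 0.0288, ZMAT3 at -0.11 ± 0.0411 and BTG2 at -0.10 ± 0.0669. CDKN1A (-0.03 ± 0.0343) and FAS (-0.03 ± 0.0501) were near 0. The step was found in these libraries, so the coefficients are a description and carry no test. Among the 6 groups of Saengmaek-san and Guibi-tang that span the step, the CPM of 8 of the members was lower after it in 6 of 6 groups. For BBC3 and FAS it was lower in 5 of 6. CDKN1A, with a coefficient near 0, was among the 8. The share of all genes lower in as many groups was not counted. For example, PHLDA3 in Saengmaek-san at 500 µg/mL read 42.3 and 37.1 CPM before the step and 25.4 CPM after it. MDM4 had a coefficient of -0.21 ± 0.0504. CPM is set against totals that include mitochondrial counts. The mitochondrial share also differed across the step, and its part in these values was not tested.

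Soshiho-tang had 1 library per dose and allows no test. At 500 µg/mL its library lay above the range of the 3 vehicle libraries for 8 members and below it for 2 (TP53I3 and BTG2). PHLDA3 (36.74 CPM beside a highest vehicle value of 36.65) and FDXR (36.17 beside 36.08) were only just above it. Of all genes 35.4% lay above and 37.6% below the vehicle range there. The ratios to the vehicle mean were 1.45 for BBC3 (7.60 CPM), 1.37 for FAS (11.9 CPM), 1.16 for CDKN1A (92.9 CPM) and 1.16 for SESN1 (10.4 CPM). It was 1.05 for MDM2 (162.2 CPM). These are the highest CPM of all 57 treated libraries for CDKN1A, MDM2, BBC3 and FAS, although this library lies after the step. The same library held the highest treated values of 3 stress genes picked from the wider list. They were SESN2 (23.4 CPM, the next highest treated library 13.7), GADD45A (20.3 and 15.4) and GDF15 (30.8 and 26.9). The other genes of the wider target and regulator lists named above, PERP, AEN and XPC among them, were not highest in it. The share of all genes that were highest in this library was not counted, and what raised these genes was not tested. At 100 µg/mL 2 members lay above and 7 below the vehicle range (27.2% and 36.4% of all genes), and at 20 µg/mL 3 above and 6 below (27% and 36.9%). BTG2 read 8.29, 7.75 and 7.22 CPM at 500, 100 and 20 µg/mL, each below the vehicle range. There is no replicate for these values.

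Over the 22 points formed by the 19 groups of 3 libraries and the 3 Soshiho-tang libraries, Pearson's r of log2 CPM between members was highest for TP53I3 with PHLDA3 (0.83) and TP53I3 with FDXR (0.83), and lowest for FAS with BTG2 (0.03). All 45 pairs were above 0 and 29 exceeded 0.5, with a median of 0.63. The same counts over pairs of all genes were not made. These points share the step, the vehicle and a scale on totals that include mitochondrial counts, so the r values are descriptions. By the same measure over 10941 genes of at least 5 CPM, the genes most like PHLDA3 were C1orf43 (r = 0.98) and SLC3A2 (0.97), and those most like TP53I3 were STK32C (0.95) and DIS3L (0.94). BTG2 was most like CELF1 (0.91) and MDM4 (0.90), MDM2 most like ELK4 (0.92) and SNHG32 (0.91), and CDKN1A most like SAT1 (0.89) and TAMM41 (0.89). BBC3 was most like TMEM231 (0.92) and GPT2 (0.87), FAS most like ARHGEF28 (0.84) and NGEF (0.84), and FDXR most like AJUBA (0.92) and TRMT2B (0.92). Among the nearest genes to SESN1 was SMIM14 (0.88), and ZMAT3 was most like SAMD8 (0.85) and ZNF333 (0.82). No member was among the nearest 2 genes of another member.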

How the data were processed

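Tools named in the submitters' processing notes are RSEM 1.3.3 and STAR 2.7.3a, with Trim Galore 0.6.5 and FastQC 0.11.9, and the build is hg38 (GRCh38). The authors deposited RSEM expected counts per gene for 60 libraries. The annotation release and strand setting are not given in the sources used here. The expected counts, 10.49% of which were not whole, were rounded. The 19 groups of 3 libraries (57 libraries) shared 1 fit with edgeR 4.0.16 (quasi-likelihood test, R 4.3.3, limma 3.58.1), with TMM scaling and filterByExpr by group. Benjamini-Hochberg adjustment ran over the 17256 genes tested in each comparison, and a gene was called at an adjusted p under 0.05. Alternatives were DESeq2 1.42.0, RLE scaling, no filter, no mitochondrially encoded genes, only the groups compared, the replicate block, the step as a term, libraries of 1 side of the step, and leaving out each library. The fits were tested on simulated data. CPM uses the library total, and intervals are 95%. The SE of a member's log2 fold change at 500 µg/mL against vehicle ran from 0.0564 (CDKN1A) to 0.122 (PHLDA3) and did not follow its counts. No pair of libraries agreed within sampling noise (lowest chi-square per degree of freedom 1.847 over 1770 pairs).

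The members and the gene lists were chosen with earlier results of these data known. Named genes were the members, MDM4 and CDKN2A, and up to 3 called genes per direction from the wider target and regulator lists in each comparison of 500 µg/mL, plus for each member the 2 genes of highest r. Some genes that this rule names are not reported here. Other lists were given as counts. ATF4 targets at 500 µg/mL against vehicle were called in 3 of 12 in Menthae Herba, 2 in Saposhnikoviae Radix, 3 in Saengmaek-san, 6 in Guibi-tang, 2 in Soyo-san and 1 in Okbyeongpung-san. Between 0.614% (Saengmaek-san) and 6.77% (Menthae Herba) of all genes were called in these comparisons. Same-numbered libraries of 2 groups deviated together (every correlation over 0.1) in 1 comparison only, Saengmaek-san 500 against 20, with a lowest correlation of 0.117. Its numbers are those of the labels.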

Additional observations from a re-analysis of the deposited data

How the results depend on the processing

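Members called at 500 µg/mL against vehicle numbered 4 in Soyo-san, 2 in Okbyeongpung-san and 1 in each of the other 4 extracts. For Menthae Herba the count was 2 with the step as a term, 2 with no filter on low counts, 2 with DESeq2, 4 with only the groups compared and 4 with only libraries before the step. Saposhnikoviae Radix gave 2 with the step as a term, 3 with only the groups compared and 3 with only libraries before the step. Saengmaek-san gave 0 with only the groups compared. Guibi-tang gave 2 with the step as a term, 2 with no filter, 2 with DESeq2 and 2 with only libraries before the step. Okbyeongpung-san gave 1 with the step as a term and 5 with only the groups compared. For 500 against 20 µg/mL of Menthae Herba the count of 0 became 1 with the step as a term, 1 with no filter, 1 with only the groups compared and 2 with only libraries before the step, the last chosen after seeing the data. The cause of these shifts was not tested. Leaving out 1 library in turn gave 0 to 1 in Menthae Herba, 0 to 0 in Saposhnikoviae Radix, 0 to 0 in Saengmaek-san, 1 to 1 in Guibi-tang, 2 to 4 in Soyo-san and 1 to 2 in Okbyeongpung-san. The sum over extracts was 3 to 9 at 100 µg/mL and 3 to 9 at 20 µg/mL, and 500 against 20 and the 3 differences between extracts gave 0 to 0. Of 3652 log2 fold changes of single genes under an alternative, 98 lost a call, 50 gained one and 0 called values changed sign, while 217 called in neither fit did. With the replicate block BTG2 was called in 16 and MDM2 in 8 of 18 comparisons with vehicle, as without it. For the paired libraries of Saengmaek-san (500 against 20) the block gave 0 members called, as without it. The block shares its replicate terms over all 19 groups, so it does not model the pairing of this 1 comparison, which was not tested. What depth alone limits was not tested: PHLDA3 (up to 1306 counts) and BBC3 (up to 199) had the widest SEs, up to 0.122 and 0.118.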
